A study of Mus musculus with 3 samples.

Results

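The Notch pathway was followed here through 9 genes in the cells of the mouse aorta: the receptors Notch1, Notch2 and Notch3, the ligands Jag1 and Dll4, and the transcriptional targets Hes1, Hey1, Hey2 and Heyl. They were chosen as a list of symbols, 9 of the 32285 genes in the deposited matrices, and all 9 had counts in these cells. The study asked how the human APOE alleles shape the cells of the atherosclerosis-prone aorta. Male mice in which the mouse Apoe gene was replaced by human APOE2, APOE3 or APOE4, on a C57BL/6J background, entered at 12 weeks of age and were fed a Western diet (42% fat, 0.2% cholesterol) for 16 weeks. Whole aortas, from the arch to the iliac bifurcation, were digested with enzymes at 37 °C for 1 h, cells were pooled by genotype from 6, 5 and 7 mice (APOE2, APOE3, APOE4), and each pool became 1 droplet library of single-cell RNA. Every mouse of the series therefore carried a human APOE allele and received the diet, and no mouse with its own Apoe and no mouse on control chow was analysed here. Since each genotype was 1 pooled library, no test between genotypes was possible, and ratios between libraries carry counting error only.

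Notch receptors are cell surface proteins that are cut when a ligand on a neighbouring cell binds them. The freed intracellular part enters the nucleus, joins the DNA-binding protein RBPJ and a Mastermind co-activator, and switches on genes of the Hes and Hey families, which encode transcriptional repressors. In arteries the pathway is known for contact between endothelium and muscle. Dll4 and Notch1 act in endothelium, where they help set arterial identity and restrain sprouting. Jag1 on endothelium and on muscle engages Notch2 and Notch3 on smooth muscle, where the pathway helps maintain the contractile state. Notch3 is best known as a receptor of arterial smooth muscle and pericytes, and Heyl and Hey2 are targets often read out there.

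The members lie on 6 chromosomes of GRCm38, the assembly behind mm10, and each is a protein-coding gene. Notch1 (ENSMUSG00000026923) spans chromosome 2 from 26457903 to 26516663 on the minus strand. Jag1 (ENSMUSG00000027276) lies on the same chromosome from 137081456 to 137116644 on the minus strand, and Dll4 (ENSMUSG00000027314) from 119325784 to 119335962 on the plus strand. Chromosome 3 holds 2 members, Notch2 (ENSMUSG00000027878) from 98013527 to 98150361 on the plus strand and Hey1 (ENSMUSG00000040289) from 8663359 to 8667256 on the minus strand. Notch3 (ENSMUSG00000038146) lies on chromosome 17 from 32120820 to 32166852, minus strand. Hes1 (ENSMUSG00000022528) lies on chromosome 16 from 30064384 to 30067796, plus strand. Hey2 (ENSMUSG00000019789) lies on chromosome 10 from 30832359 to 30842801, minus strand. Heyl (ENSMUSG00000032744) lies on chromosome 4 from 123233556 to 123249875, plus strand. The list is thus spread over the genome, and no 2 members lie side by side.

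Promoters were read because the Hey genes are direct targets in the textbook account. RefSeq promoters on GRCm38.p6 matched 6 of the 9 members, Notch1, Notch2, Notch3, Jag1, Dll4 and Hey2, and did not include Hes1, Hey1 or Heyl. The 250 bases before each start were searched for TGGGAA, the core letters of the RBPJ motif, and for their reverse complement TTCCCA. Of the 6, the Hey2 promoter held a match, a single TTCCCA whose first base lies 207 bases before the start. Its window is chr10:30842784-30843033, read on the minus strand, 5′ to 3′, with the match in capitals.
Hey2: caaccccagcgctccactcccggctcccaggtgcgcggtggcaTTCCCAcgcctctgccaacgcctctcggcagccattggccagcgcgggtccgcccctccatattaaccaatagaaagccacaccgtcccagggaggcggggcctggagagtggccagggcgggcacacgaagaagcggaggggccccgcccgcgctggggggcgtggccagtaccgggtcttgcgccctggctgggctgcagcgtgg
Of all 32851 promoters of the same length, 21.6% held these letters in either orientation and 1.28% in both, so a match of this kind is common, and it is given as a description of the sequence.

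The libraries gave 11772, 6737 and 8248 cells for APOE2, APOE3 and APOE4 once barcodes below 200 genes, or at or above 20% mitochondrial UMIs, were set aside. Molecules were counted by unique molecular identifiers (UMIs), with medians of 12047, 17618 and 13521.5 UMIs per cell. Between 14 and 27 barcode sequences were shared by any 2 libraries. Cells were clustered without the 9 members and without 42 other pathway genes, and classes were named from markers. Smooth muscle-like cells numbered 7425, 4151 and 5449 in the order APOE2, APOE3, APOE4, fibroblast-like cells 1360, 813 and 1157, macrophage-like cells 346, 94 and 125, and endothelial-like cells 138, 33 and 38. The last class was small and rested mostly on the APOE2 library. Levels are UMIs of a gene per 1000000 UMIs of the class (CPM), given in the order of genotypes just given throughout. Muscle genes were also counted in other classes. The smooth muscle marker list, the summed CPM of 10 genes, was 52234, 60786 and 56836 in smooth muscle-like cells. It was 5810, 16060 and 10249 in endothelial-like and 6645, 14130 and 10461 in macrophage-like cells. Among fibroblast-like cells, a cluster of 482 cells kept 5 of the 10 muscle markers. Its Acta2 was at 13349 CPM, against 2193 and 2389 CPM in the other fibroblast-like clusters.

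Receptor genes divided the classes clearly. Notch1 stood at 102, 43.5 and 72.0 CPM in endothelial-like cells and at 25.4, 33.0 and 31.5 CPM in macrophage-like cells. In smooth muscle-like cells it was 4.36, 3.54 and 6.13 CPM, and in fibroblast-like cells 6.96, 4.62 and 6.56 CPM. The order was thus endothelial, macrophage, then the 2 mesenchymal classes, and the groups of 3 libraries did not overlap between endothelium, macrophages and the mesenchymal classes. Relative to smooth muscle, Notch1 was higher by 3.75 ± 0.28 (log2, SE, 3 libraries) in endothelium, with an edgeR adjusted p of 1.22e-06, and by 2.64 ± 0.26 in macrophages, with an edgeR adjusted p of 2.38e-06. Fibroblast-like cells did not pass the test for Notch1 (log2 difference 0.28 ± 0.23, edgeR adjusted p = 0.33).

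Notch2 was the receptor found in every class. It reached 92.7, 133 and 130 CPM in macrophage-like cells, 58.9, 69.4 and 59.8 CPM in fibroblast-like cells, 57.9, 57.8 and 48.6 CPM in smooth muscle-like cells and 32.6, 48.6 and 60.0 CPM in endothelial-like cells. Macrophages stood above the other 3 classes in every library, whereas muscle and fibroblasts were neighbours that did not differ beyond their spread (log2 difference 0.09 ± 0.14, edgeR adjusted p = 0.64). The macrophage difference from muscle was 1.09 ± 0.15 on the log2 scale (edgeR adjusted p = 4.18e-05). In endothelium Notch2 was lower by a log2 difference of -0.71 ± 0.19 (edgeR adjusted p = 0.016). That last call was lost without the APOE2 library, where the edgeR adjusted p was 0.25, and without the APOE3 library, where it was 0.057, and with DESeq2's size factors in edgeR (adjusted p = 0.052).

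Notch3 was higher in muscle than in fibroblasts and macrophages. Smooth muscle-like cells had 11.3, 14.9 and 18.6 CPM against 4.29, 6.30 and 5.64 CPM in fibroblast-like and 1.43, 2.68 and 5.60 CPM in macrophage-like cells. Every muscle value was above every fibroblast and macrophage value. The log2 difference from muscle was -1.56 ± 0.23 in fibroblasts (edgeR adjusted p = 1.14e-04) and -2.38 ± 0.37 in macrophages (edgeR adjusted p = 1.35e-04). Endothelial-like cells had 10, 6 and 0 Notch3 UMIs, and their difference from muscle did not pass (log2 difference -1.05 ± 0.42, edgeR adjusted p = 0.077). It did pass, as lower, in 4 alternatives, with edgeR adjusted p of 0.0068 without the low-count filter, 0.048 at clustering resolution 1.6, 0.017 with classes set cell by cell (log2 difference -3.04) and 0.028 with the highest Scrublet (doublet) scores removed. When classes were instead set cell by cell from markers, macrophages had no Notch3 UMI in any library. Endothelial cells then had 0, 2 and 0 UMIs. The part of muscle RNA in the Notch3 counts of these classes was not tested.

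Jag1, the ligand that both endothelium and muscle present, was highest in endothelial-like cells at 57.3, 53.7 and 48.0 CPM. Fibroblast-like cells had 32.6, 45.1 and 35.2 CPM, smooth muscle-like cells 21.9, 22.3 and 18.3 CPM and macrophage-like cells 9.74, 5.35 and 11.2 CPM. These 4 ranges did not overlap. Both increases over muscle passed the test, with log2 differences of 1.05 ± 0.21 in endothelium (edgeR adjusted p = 0.0021) and 0.75 ± 0.15 in fibroblasts (edgeR adjusted p = 0.0012). In macrophages Jag1 was lower by a log2 difference of -1.16 ± 0.22 (edgeR adjusted p = 6.42e-04). Without the APOE2 library, which holds most of the endothelial-like cells, the endothelial difference was 0.88 and its edgeR adjusted p 0.073.

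Dll4, the endothelial ligand, had its highest CPM in endothelial-like cells, though smooth muscle-like cells held a part of its UMIs. There it had 62, 6 and 1 UMIs, which are 45.0, 15.3 and 4.0 CPM. Against this stood 15, 6 and 16 UMIs in all smooth muscle-like cells (0.12, 0.06 and 0.16 CPM), 0, 0 and 1 UMIs in fibroblast-like cells and none in macrophage-like cells. Every endothelial value was above every muscle value, although the APOE4 value rests on 1 UMI. Dll4 entered the fit only through the endothelial class where it is high, being too sparse to test within muscle, so its call there is no independent evidence and its fitted difference is not given.

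**Figure D1:**
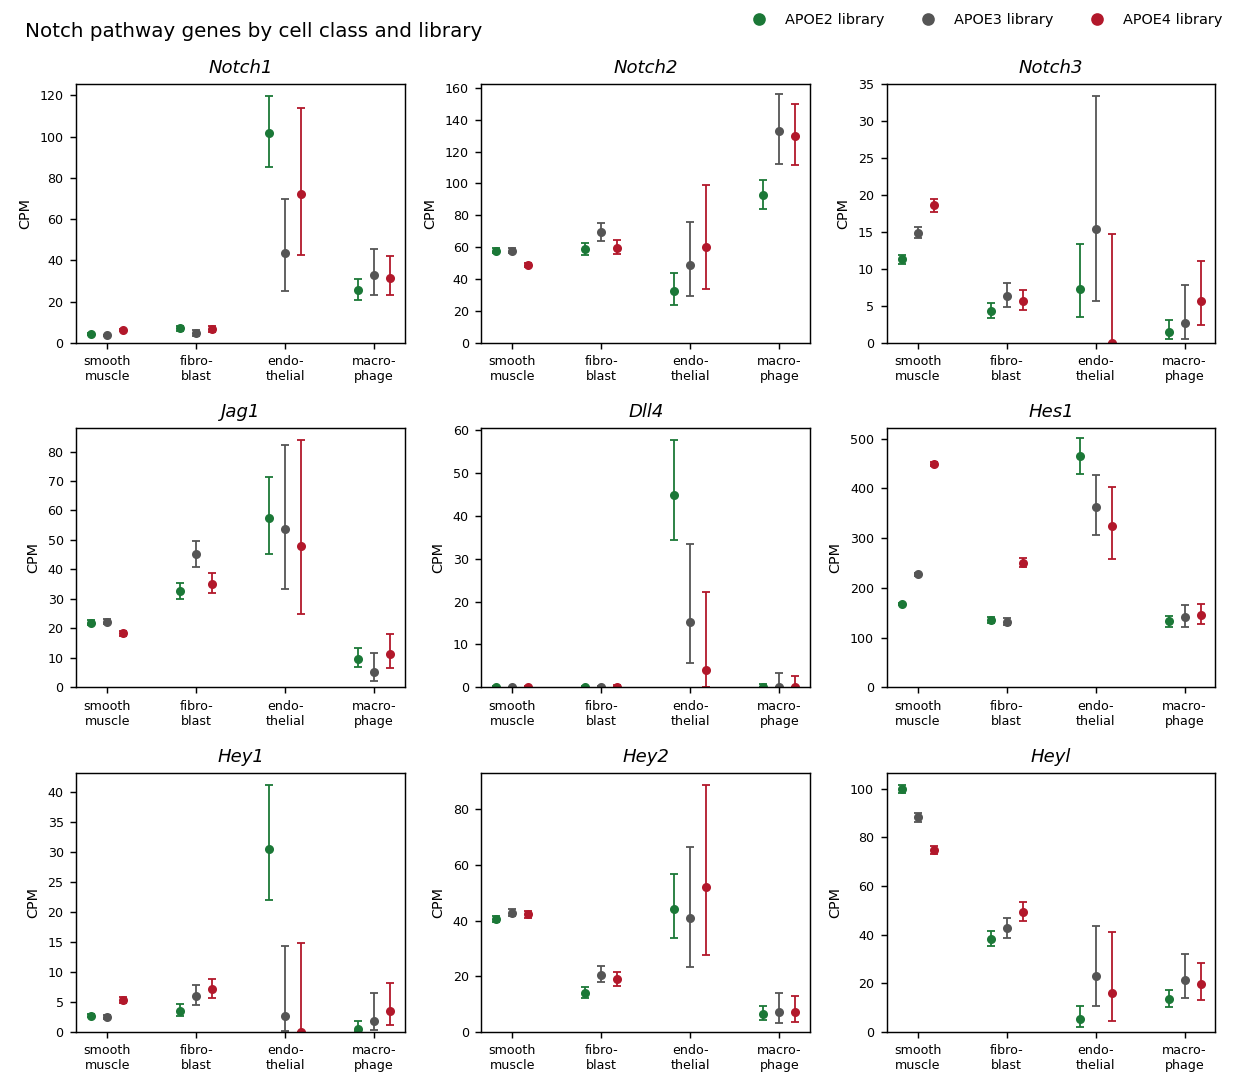
Level in CPM (vertical axis, linear from 0, 1 panel per gene) of the 9 genes in smooth muscle-like, fibroblast-like, endothelial-like and macrophage-like cells, with 1 point per genotype library and bars for the exact Poisson 95% interval, which covers counting error only. Notch1 and Dll4 are highest in endothelial-like cells, Notch2 in macrophage-like cells and Heyl in smooth muscle-like cells.

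The 4 target genes divided the classes differently from each other. Heyl was the target most restricted to muscle, with 99.9, 88.3 and 74.6 CPM in smooth muscle-like cells, 38.2, 42.6 and 49.4 CPM in fibroblast-like cells, 13.3, 21.4 and 19.6 CPM in macrophage-like cells and 5.08, 23.0 and 16.0 CPM in endothelial-like cells. All muscle values were above all others, and endothelium and macrophages overlapped. Relative to muscle, the log2 difference was -1.12 ± 0.20 in fibroblasts, -3.36 ± 0.35 in endothelium and -2.36 ± 0.25 in macrophages, with edgeR adjusted p of 4.41e-04, 1.88e-05 and 4.44e-06. In classes set cell by cell, endothelial cells had 1, 0 and 0 Heyl UMIs and macrophages 13, 0 and 2.

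Hey2 was shared by muscle and endothelium. Levels were 40.5, 42.8 and 42.2 CPM in smooth muscle-like cells and 44.2, 40.9 and 52.0 CPM in endothelial-like cells, against 14.1, 20.6 and 18.8 CPM in fibroblast-like and 6.42, 7.14 and 7.00 CPM in macrophage-like cells. Muscle and endothelium overlapped and their difference did not pass (log2 -0.19 ± 0.17, edgeR adjusted p = 0.46). Fibroblasts and macrophages were both lower than muscle, by log2 differences of -1.35 ± 0.13 and -2.59 ± 0.19, with edgeR adjusted p of 2.95e-06 and 2.01e-07.

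Hes1, a target of Notch that is also known to answer other signals, was widespread. It had 167, 227 and 449 CPM in smooth muscle-like cells, 135, 132 and 251 CPM in fibroblast-like cells, 465, 363 and 324 CPM in endothelial-like cells and 133, 142 and 146 CPM in macrophage-like cells. The muscle values ranged so widely between libraries that they overlapped with those of endothelium and of fibroblasts. Fibroblast-like cells were lower than muscle by a log2 difference of -0.78 ± 0.29 (edgeR adjusted p = 0.037). This call was lost without the APOE3 library (edgeR adjusted p = 0.11) and without the APOE4 library (edgeR adjusted p = 0.056). Macrophages were lower by -0.92 ± 0.30 (edgeR adjusted p = 0.018), a call lost without the APOE4 library (edgeR adjusted p = 0.11). The endothelial difference was 0.25 ± 0.30 and did not pass (edgeR adjusted p = 0.59).

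Hey1, a target known from arterial endothelium, had 42, 1 and 0 UMIs in endothelial-like cells (30.5, 2.56 and 0 CPM). In smooth muscle-like cells it had 2.71, 2.50 and 5.25 CPM, in fibroblast-like cells 3.54, 5.98 and 7.05 CPM and in macrophage-like cells 0.48, 1.78 and 3.50 CPM. The APOE2 endothelial value alone stood far above the rest. The endothelial difference of 2.24 ± 0.66 (edgeR adjusted p = 0.022) rested on that library: without it the difference turned to -1.62 and did not pass (edgeR adjusted p = 0.46). It did not pass in DESeq2 either (adjusted p = 0.16). Differences of fibroblasts (0.59 ± 0.46) and macrophages (-1.23 ± 0.90) from muscle did not pass, with edgeR adjusted p of 0.31 and 0.25. Macrophage Hey1 did pass, as lower, without the low-count filter (edgeR adjusted p = 0.035), at clustering resolution 0.4 (0.043), with classes set cell by cell (log2 difference -4.20, 0.0096) and with the highest Scrublet scores removed (-3.30, 0.043).

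Counted together, 5 of 9 members passed between fibroblast-like and smooth muscle-like cells, 1 of them higher and 4 lower in fibroblasts. In that comparison 50.9% of all 14491 genes passed and the median gene differed by 0.12, so the share of members was near the background. Between endothelial-like and smooth muscle-like cells 6 of 9 passed, 4 higher and 2 lower, where 31.1% of all genes did. These 6 include Dll4, whose call is no independent evidence. Without the APOE2 library 3 were called, with Notch2, Jag1 and Hey1 lost. Between macrophage-like and smooth muscle-like cells 7 of 9 passed, 2 higher and 5 lower, where 61.3% of all genes did.

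The remaining machinery of the pathway was read from a list of 42 other genes, 40 of which were tested between classes. In fibroblast-like cells 18 were higher and 5 lower than in muscle, with a median log2 difference of 0.36. The largest increases were Dtx4 (5.48), a Deltex-family regulator, and Lfng (4.45), a Fringe glycosyltransferase that changes how receptors answer their ligands. The related Mfng also passed, on no more than 4, 0 and 3 UMIs in fibroblasts and 3, 0 and 0 in muscle. The largest decreases were the ligand Jag2 (-2.80), the arterial ephrin Efnb2 (-1.40) and the ligand-trafficking ligase Neurl1a (-1.14). In endothelial-like cells 14 were higher and 6 lower, with a median of 0.29. The largest increases besides Mfng were Lfng (5.61) and the feedback inhibitor Nrarp (5.48). Mfng had 60, 7 and 4 UMIs there against 3, 0 and 0 in all smooth muscle-like cells. Being too sparse to test within muscle, Mfng entered the fit only through the classes where it is high. Its calls are therefore no independent evidence, and its fold is not given. Lfng and Nrarp were also scarce in muscle and entered this fit through the classes where they are high. Their calls are no independent evidence either, and their folds are descriptions. The decreases were led by Pdgfrb (-1.32), a growth factor receptor of mural cells, Numbl (-0.99) and Mib2 (-0.94). In macrophage-like cells 22 were higher and 6 lower, with a median of 0.44. Mfng had 54, 20 and 15 UMIs there, and the largest increases besides it were Lfng (7.49) and Dtx4 (5.15). Efnb2 (-2.77) and Pdgfrb (-1.72) were lower, and the ligand Dll1 had no UMI in macrophages. As a description, Lfng was thus lower in muscle than in each of the other 3 classes. In a comparison within muscle given below, Hox against Hand2, the SE of Dtx4 was near that of Nrarp (0.27 and 0.29). The Dtx4 calls in fibroblasts and macrophages are therefore read in the same way, as no independent evidence, and its folds as descriptions. Called, with Mfng, Lfng, Nrarp and Dtx4 included where they passed, were 57.5%, 50% and 70% of the 40 tested in fibroblast-like, endothelial-like and macrophage-like cells. Of all genes 50.9%, 31.1% and 61.3% were called, so the fibroblast and macrophage shares were near the background. The medians stand beside medians over all genes of 0.12, -0.09 and -0.07. The adjusted p of each named gene was under the 0.05 threshold in edgeR's test, which for Mfng, Lfng, Nrarp and Dtx4 is no independent evidence.

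Among lymphocytes and granulocytes, classes too small for the fit, T lymphocyte-like cells had 42.7, 73.2 and 35.9 CPM of Notch1, the receptor that directs T cell development. Neutrophil-like cells had 234, 265 and 115 CPM of Notch2. Both are values of 1 small class per library, with no test.

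Inside the endothelial-like class of the APOE2 library, the members fell into distinct patterns between cells with and without a UMI of Gpihbp1, the lipoprotein lipase anchor of capillary endothelium. This split was made after the values were seen and is a description. The 43 cells with Gpihbp1 had 101 CPM of Hey1 and 92.5 CPM of Dll4, whereas the 95 cells without it had 7.67 and 29.7 CPM. Hey2 went the other way, with 5.96 CPM (2 UMIs) in cells with Gpihbp1 and 56.5 CPM in cells without. Notch2 was lower too, at 14.9 CPM (5 UMIs, counting interval 4.84 to 34.8) against 38.3 CPM (27.4 to 52.2), but these intervals overlapped. Notch1 was at 110 and 98.7 CPM. Summed arterial markers (Sox17, Gja4, Gja5, Bmx and Efnb2) were 259 CPM in cells with Gpihbp1 and 828 CPM in cells without, and summed lymphatic markers were 1139 and 123 CPM. APOE3 and APOE4 had 2 and 5 such cells, with 0 and 0 Hey1 UMIs and 0 and 1 Dll4 UMIs in them. Of the 42 Hey1 UMIs of the APOE2 class 34 came from the cells with Gpihbp1, and of the 62 Dll4 UMIs 31.

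**Figure D2:**
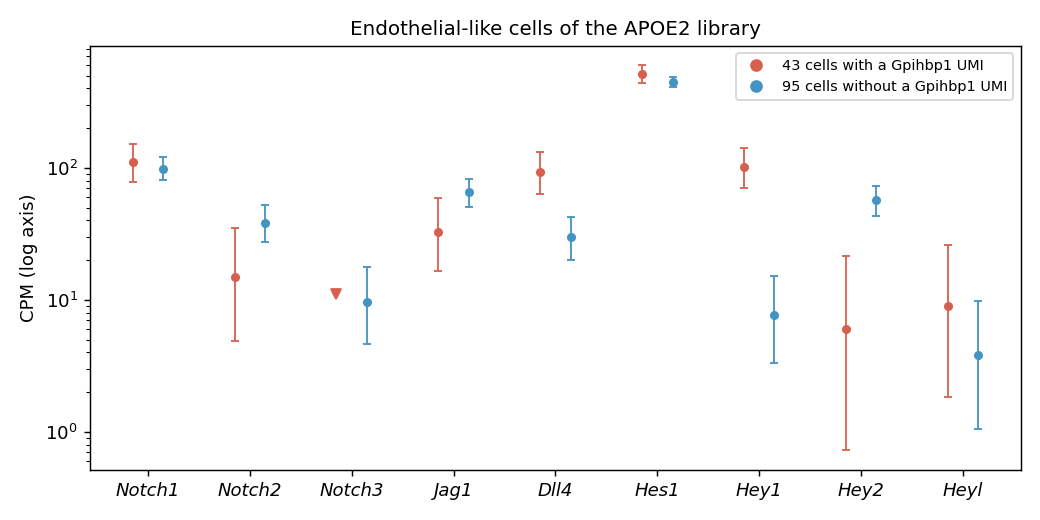
CPM (log axis) of the 9 genes in endothelial-like cells with and without a Gpihbp1 UMI in the APOE2 library, with exact Poisson 95% intervals for counting error, and a triangle at the upper limit where no UMI was counted. Hey1 and Dll4 are higher and Hey2 lower in the 43 cells with Gpihbp1 than in the 95 cells without. Notch2 is lower there with overlapping intervals.

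Smooth muscle of the arch and of the descending aorta has different embryonic origins, and position along the vessel can be read from transcription factors. Muscle cells with a Hand2 UMI and none of 6 Hox genes numbered 3264, 1231 and 1039, and cells with a UMI of these Hox genes and none of Hand2 numbered 1602, 1479 and 2309. Position was not dissected, so these are gene-defined subsets. Heyl was lower in the Hox subset of every library, at 83.8, 79.7 and 70.7 CPM against 112, 97.1 and 86.9 CPM in the Hand2 subset, a log2 difference of -0.37 ± 0.04 (edgeR adjusted p = 0.0021). Notch2 was higher in the Hox subset of every library, at 65.3, 66.4 and 51.0 CPM against 53.6, 47.7 and 40.5 CPM, a log2 difference of 0.33 ± 0.05 (edgeR adjusted p = 0.0045). Notch2 and Heyl thus moved in opposite directions along this axis, whereas the receptor Notch1, given below, moved with Heyl.

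Hes1 was also lower in the Hox subset, at 125, 166 and 429 CPM against 189, 292 and 500 CPM, with a log2 difference of -0.57 ± 0.10 (edgeR adjusted p = 0.013). A list of 10 immediate early and heat shock genes (Fos, Fosb, Jun, Junb, Egr1, Atf3, Ier2, Dnajb1, Hspa1a and Socs3), which are known to rise within minutes in disturbed or digested tissue, moved the same way: its summed CPM was 6663, 10130 and 16746 in the Hox subset and 11624, 14775 and 20921 in the Hand2 subset. Its part in the Hes1 difference was not tested. Jag1 was slightly lower in the Hox subset, at 18.9, 20.3 and 17.0 CPM against 23.1, 22.6 and 19.8 CPM (log2 -0.25 ± 0.05, edgeR adjusted p = 0.021), and Notch1 likewise, at 3.71, 2.74 and 5.57 CPM against 4.46, 4.01 and 7.57 CPM (log2 -0.44 ± 0.11, edgeR adjusted p = 0.040). Each of these 5 genes had the same direction within all 3 libraries. The Jag1 call was lost without APOE2 (edgeR adjusted p = 0.051) and without APOE3 (0.063), and the Notch1 call without APOE3 (0.16) and without APOE4 (0.16). In DESeq2 neither was called, with adjusted p of 0.17 for Jag1 and 0.26 for Notch1. With subsets set by at least 2 UMIs the edgeR adjusted p was 0.052 for Jag1 and 0.064 for Notch1, and Notch1 was at 0.051 with the highest Scrublet scores removed.

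Notch3 was 13.9, 15.6 and 20.1 CPM in the Hox subset and 9.93, 15.7 and 16.4 CPM in the Hand2 subset and did not pass (log2 0.22 ± 0.10, edgeR adjusted p = 0.18), but passed without APOE3 (0.36, edgeR adjusted p = 0.046) and without the low-count filter (0.049). Hey1 and Hey2 did not pass either (log2 -0.07 and -0.03, edgeR adjusted p = 0.79 and 0.70), and Dll4 was too sparse to test. In total 5 of 8 tested members passed, 1 higher and 4 lower, where 14.0% of all 14465 genes did. With the replicate block left out, that is with no term for the library, 0 of 8 passed in edgeR, 3 of them at an unadjusted p under 0.05, and with the block DESeq2 called 3. Of the other pathway genes 5 of 38 passed: Fbxw7 (0.27) was higher, and the largest decreases were Dtx1 (-1.42), Neurl1a (-1.06) and Jag2 (-0.96).

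Modulated smooth muscle was taken as the top 10% of muscle cells by Vcam1, Timp1, Lgals3, Tnfrsf11b, Fn1, Ly6a and Lum, genes raised when contractile cells change toward a matrix-producing state. These were 865, 469 and 369 cells. Lum is also among the fibroblast markers used to name classes. The part of RNA from other classes in the differences of modulated cells was not tested. Heyl was 50.5, 61.7 and 53.5 CPM in them against 109, 92.5 and 76.7 CPM in the other muscle cells, and Hey2 was 23.8, 29.0 and 29.8 CPM against 43.5, 45.0 and 43.4 CPM. Neither pair of ranges overlapped. The log2 differences were -0.75 ± 0.11 for Heyl (edgeR adjusted p = 0.0072) and -0.69 ± 0.08 for Hey2 (edgeR adjusted p = 0.0024).

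Of the receptors, Notch1 was higher in each library, at 6.52, 5.16 and 8.99 CPM against 3.97, 3.29 and 5.85 CPM (log2 0.66 ± 0.11, edgeR adjusted p = 0.011), a call lost without APOE3 (edgeR adjusted p = 0.075), in cells of 5000 to 30000 UMIs, where the difference was 0.37 (0.12), and without the replicate block (0.31). Notch3 was lower in each library, at 10.2, 10.9 and 15.9 CPM against 11.5, 15.5 and 18.8 CPM (log2 -0.32 ± 0.09, edgeR adjusted p = 0.048), near the threshold. That call was lost in 9 alternatives, with edgeR adjusted p of 0.24 without APOE3, 0.14 without APOE4, 0.54 without the replicate block, 0.053 with DESeq2's size factors, 0.057 and 0.084 with the top 5% and top 20% of cells, 0.11 with the highest Scrublet scores removed and 0.20 in cells of 5000 to 30000 UMIs, and 0.14 in DESeq2's own test. Notch2, Jag1, Hes1 and Hey1 did not pass, with log2 differences of 0.08, 0.01, -0.03 and 0.11, though Notch2 passed with classes set cell by cell (0.43, edgeR adjusted p = 0.038). In total 4 of 8 tested members passed, 1 higher and 3 lower, where 20.3% of all 15534 genes did. Among 39 other pathway genes 8 were higher and 2 lower. The increases were led by Neurl1b (3.03), Neurl1a (1.26) and Rbpj (0.54), the DNA-binding partner of the receptors. The decreases were Aph1c (-0.74), a part of the receptor-cutting gamma-secretase, and Dtx3 (-0.28). Between the Hox and Hand2 subsets Neurl1b had a larger SE than the scarce Nrarp (0.49 and 0.29). Neurl1b may have entered this fit through the modulated cells, where it is high. Its call is therefore taken as no independent evidence, and its fold is a description.

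**Figure D3:**
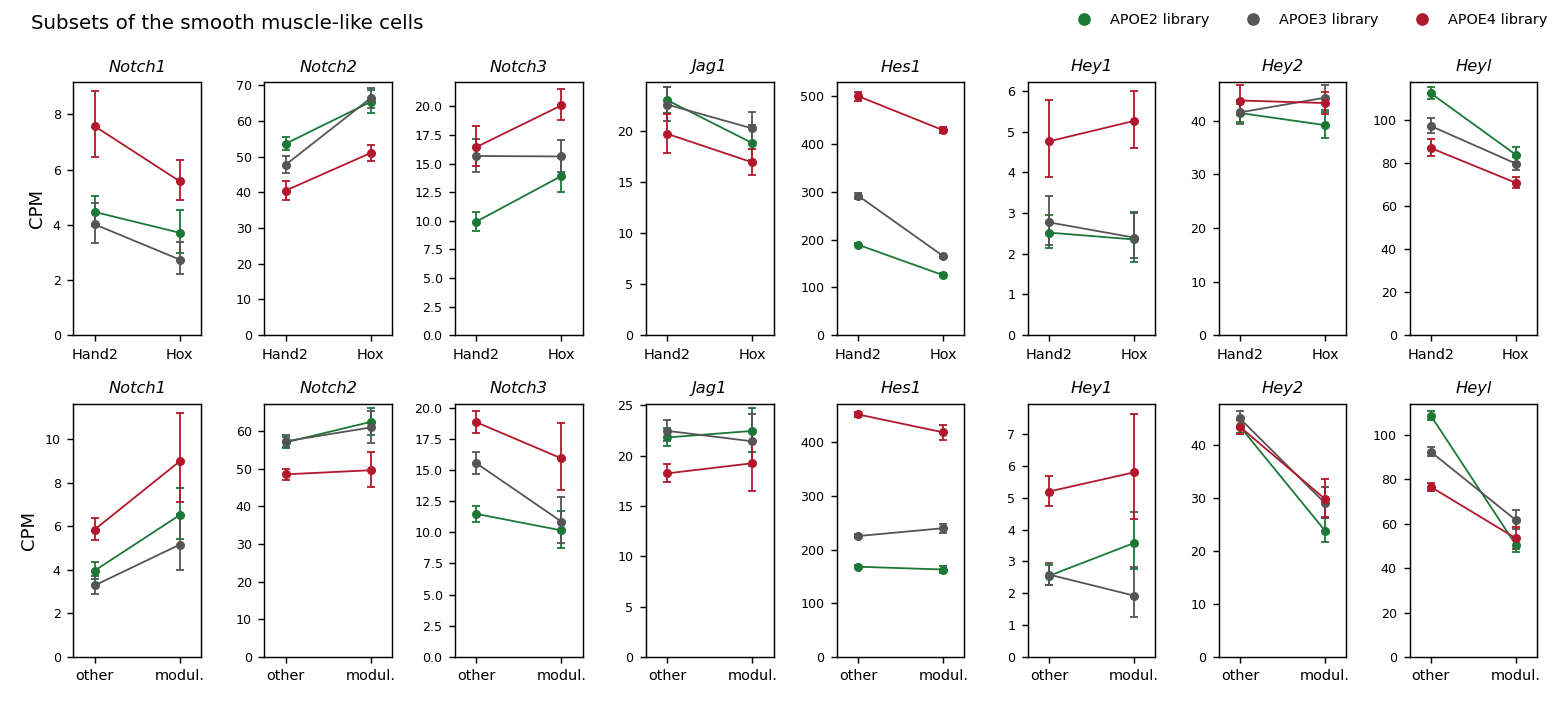
CPM of 8 genes (Dll4 was too sparse) in the smooth muscle subsets, with exact Poisson 95% intervals and a line per genotype library from the Hand2 to the Hox subset (upper row) and from other to modulated muscle cells (lower row). Heyl falls and Notch2 rises from Hand2 to Hox in all 3 libraries, and Heyl and Hey2 are lower in modulated than in other cells in all 3.

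The same genes could be read across the clusters of smooth muscle-like cells, 8 of which had enough cells in APOE2 and 7 in APOE3 and APOE4. Heyl ranged from 32.5 to 132 CPM in APOE2, from 38.3 to 115 CPM in APOE3 and from 33.8 to 94.1 CPM in APOE4. The lowest was in each library the cluster led by Fgf12, Dlx6, Dlx5 and Prss12, and the highest the cluster led by Tnnt2 and Hand2. Hey2 was lowest in the same Dlx cluster, at 16.0, 11.4 and 14.2 CPM, as was Notch3 at 7.78, 3.79 and 6.98 CPM. This cluster was thus low in Notch3, Heyl and Hey2 at once, but not in every member. Hey1 went the other way and was highest in the Dlx cluster in each library. Notch2 in it was not the lowest in any library, and in APOE3 both Notch2 and Jag1 were highest there. Hes1 was lowest in the Dlx cluster in APOE3 only. A small cluster of 173 cells, 165 of them from APOE2, had 114 CPM of Notch2 and 45.8 CPM of Jag1 there, the highest of the muscle clusters in that library. It was also the highest there for Notch1 (10.7 CPM), Notch3 (17.2 CPM) and Dll4 (2.86 CPM), though in so small a cluster the Notch1 and Dll4 values rest on few UMIs. Its leading genes were Ccdc152, mt-Nd6 and Ulk4, and its median UMI count was 0.534 of the library median.

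Hes1 was highest in each library in the cluster led by Dnajb1, Csrnp1, Arc and Atf3, at 315, 459 and 640 CPM. Over the muscle clusters the Hes1 level went with the summed immediate early list, with Pearson r of 0.93, 0.96 and 0.92 over 8, 7 and 7 clusters of 1 library each. These are descriptions over clusters that share a library and were partly formed by the immediate early genes.

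**Figure D4:**
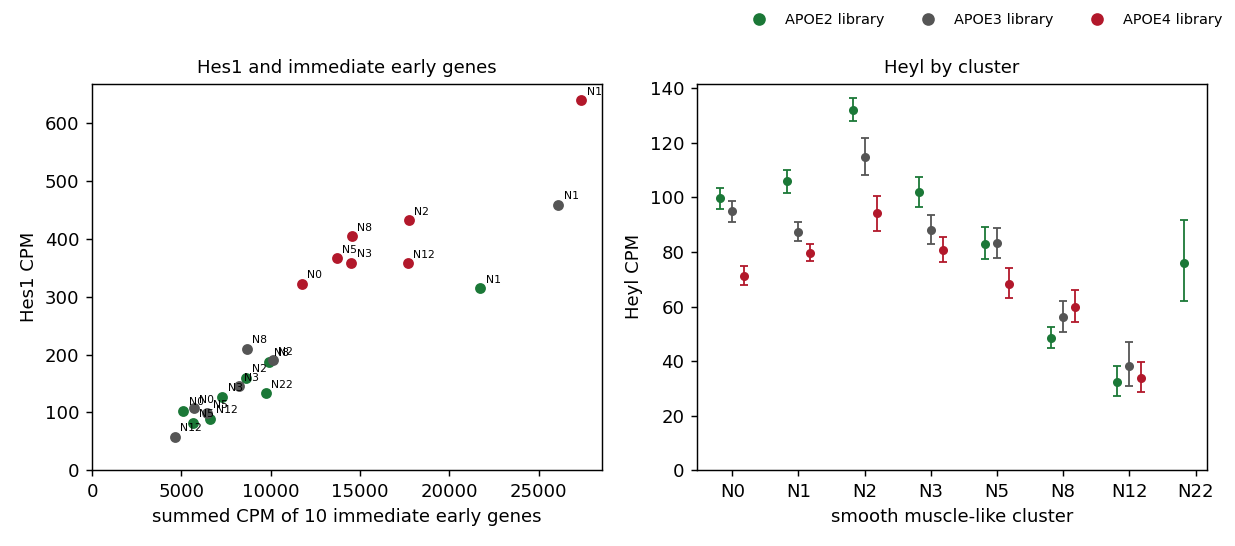
Left, Hes1 CPM against the summed CPM of 10 immediate early genes, with 1 point per cluster of smooth muscle-like cells and library, labelled by cluster; right, Heyl CPM by cluster and library with exact Poisson 95% intervals. N1 is the cluster led by Dnajb1 and Atf3, N2 that led by Tnnt2 and Hand2, N12 the Dlx cluster, and N22 is drawn for APOE2 alone; Hes1 is highest in N1 and Heyl highest in N2 and lowest in N12 in all 3 libraries.

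Between the genotype libraries the largest differences of muscle members lay in Hes1, Hey1, Notch1 and Notch3, all of them highest in APOE4. Hes1 was 167, 227 and 449 CPM, and its log2 ratio was 0.98 for APOE4 to APOE3, with a 95% counting interval from 0.96 to 1.01, and 1.42 for APOE4 to APOE2, from 1.40 to 1.45. Hey1 had 330, 236 and 528 UMIs, and its ratios were 1.07 (0.85 to 1.30) and 0.96 (0.76 to 1.16). Notch1 ratios were 0.79 (0.60 to 0.99) and 0.49 (0.32 to 0.66). Notch3 ratios were 0.32 (0.22 to 0.42) and 0.72 (0.62 to 0.82). Heyl, Notch2 and Jag1 lay on the other side of 0, with APOE4 to APOE3 ratios of -0.24, -0.25 and -0.28, and Hey2 at -0.02. The targets therefore did not move together between libraries.

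Past 1.5-fold lay 3 of 8 members in APOE4 to APOE3 (Hes1, Hey1, Notch1), where 11.9% of all genes with at least 50 UMIs did and the median gene was at -0.08. In APOE4 to APOE2 these were 3 of 8 (Hes1, Hey1, Notch3), where 17.9% of all genes did and the median was at -0.12. In APOE2 to APOE3 none of 8 lay past 1.5-fold, where 13.0% did, and the ratios ran from -0.44 for Hes1 to 0.30 for Notch1. Without the cluster led by Dnajb1 and Atf3 these were -0.01 and 0.49. The comparisons share libraries, and no p can be given for them.

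These directions were read within each of 7 muscle clusters that every library filled. The APOE4 to APOE3 ratio was above 0 in 7 of 7 for Hes1, Hey1, Notch1 and Notch3, and below 0 in 7 of 7 for Notch2 and in 6 of 7 for Heyl and Jag1. Hes1 ratios ran from 0.48 in the cluster led by Dnajb1 and Atf3 to 2.63 in the Dlx cluster. The clusters of a library come from the same pool of mice and are no replicates.

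The immediate early list was also higher in APOE4 muscle, with summed levels of 10044, 12625 and 18276 CPM. Of its 10 genes 9 were above 0 in APOE4 to APOE3, with a median log2 ratio of 0.63. Without the cluster led by Dnajb1 and Atf3, a step added after seeing the data, all 10 were above 0 with a median of 1.11, and the Hes1 ratio was 1.43. Pools were digested before capture, and whether the Hes1 difference belongs to the genotype or to the handling of a pool cannot be told apart with 1 library each.

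Read as cells, after thinning every cell to 1000 UMIs, a Hes1 UMI was found in 13.7%, 16.5% and 30.6% of smooth muscle-like cells. Heyl was found in 9.21%, 9.04% and 7.34%. Thinning left out 7, 1 and 2 muscle cells, and without it the shares were 67.1%, 72.8% and 86.6% for Hes1 and 70.1%, 77.9% and 65.5% for Heyl. In macrophage-like cells, which were at the lower end for Heyl, the thinned Heyl share was 0 of 346, 0 of 94 and 1 of 124 cells, and without thinning 8.96%, 10.6% and 11.2%. A thinned 0 thus did not mean that no cell had a Heyl UMI. Muscle genes were also counted in this class, and classes set cell by cell left few Heyl UMIs in macrophages. The part of muscle RNA in these shares was not tested. Median depths were 14355, 20635 and 15926 UMIs in muscle and 9623, 9483.5 and 9547 UMIs in macrophages. The shares of cells with Hes1 kept the order of the CPM.

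**Figure D5:**
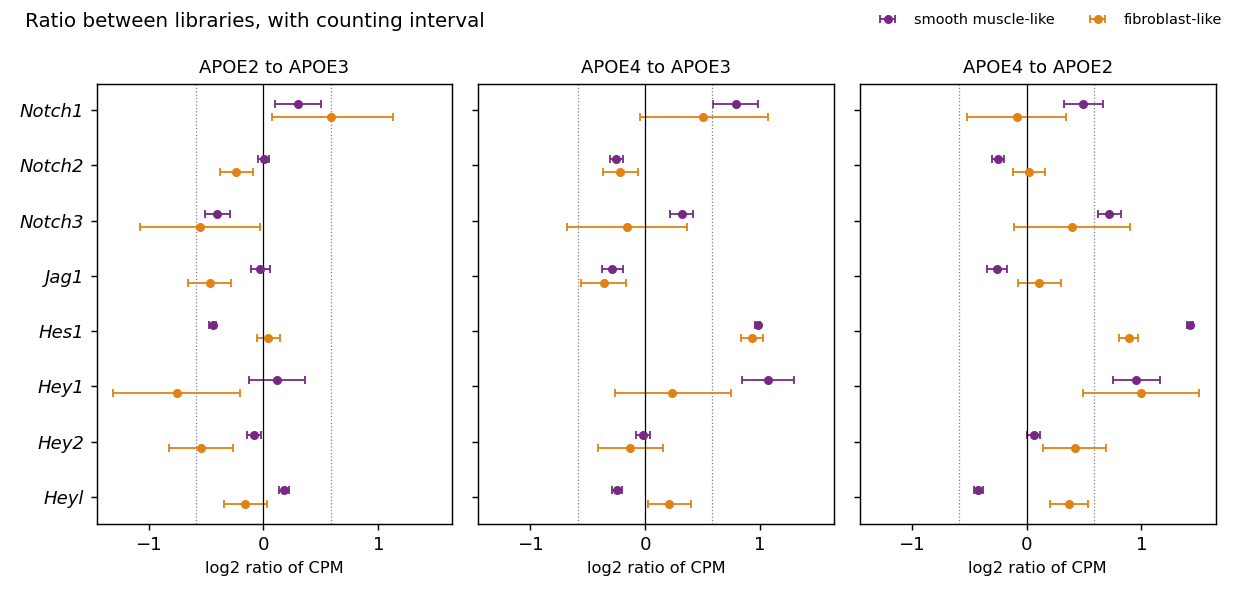
Log2 ratio of CPM between genotype libraries (horizontal axis, 1 panel per pair of libraries) for 8 genes in smooth muscle-like and fibroblast-like cells, with exact conditional 95% intervals that cover counting error only, a line at 0 and dotted lines at 1.5-fold. Hes1, Hey1, Notch1 and Notch3 lie above 0 for APOE4 to APOE3 in muscle, and Hes1 lies past 1.5-fold in both classes.

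In fibroblast-like cells Hes1 was again highest in APOE4, at 135, 132 and 251 CPM, with a log2 ratio of 0.93 against APOE3 (interval 0.83 to 1.03) and of 0.89 against APOE2 (interval 0.81 to 0.97). The immediate early list was at 6583, 7073 and 14380 CPM in the same cells, with 10 of 10 genes above 0 in APOE4 to APOE3 and a median of 1.10. Hes1 was the 1 member of 8 past 1.5-fold in APOE4 to APOE3, where 10.1% of all genes were. In APOE4 to APOE2 Hes1 and Hey1 (57 and 85 UMIs, log2 ratio 0.99, 0.49 to 1.50) were past it, 2 of 8, where 13.8% of genes were. In APOE2 to APOE3 Notch1 (0.59, 0.08 to 1.13) and Hey1 (-0.76, -1.31 to -0.20) were, 2 of 8, where 10.9% of genes were. Heyl, Jag1, Notch2, Notch3 and Hey2 stayed within 1.5-fold in all 3 fibroblast comparisons. With classes set cell by cell this no longer held: Notch3 (-0.77), Jag1 (-0.60) and Hey2 (-0.76) passed it in APOE2 to APOE3, where Notch1 (0.56) did not, and Notch3 (0.64), Hey2 (0.70) and Heyl (0.65) in APOE4 to APOE2.

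Endothelial-like cells gave fewer counts. Hes1 went from 465 CPM in APOE2 over 363 CPM in APOE3 to 324 CPM in APOE4, without the APOE4 rise seen in muscle and fibroblasts, and the immediate early list was 8056, 9953 and 9073 CPM. Dll4 ratios were 1.55 (0.35 to 3.05) for APOE2 to APOE3 and -3.49 (-8.82 to -0.96) for APOE4 to APOE2. Dll4 had enough UMIs for these ratios only through the APOE2 library, where it is high. Its place past 1.5-fold in both comparisons is therefore no independent evidence, and its ratios are descriptions. Notch1 was past 1.5-fold in APOE2 to APOE3 (1.22, 0.49 to 2.04), which made 2 of 6 members, where 32.6% of all genes were. In APOE4 to APOE2, Dll4 and Notch2 (0.88, -0.07 to 1.75) were 2 of 6, where 30% were. In APOE4 to APOE3 only Hes1 had enough UMIs and stayed within it (-0.16), where 27.1% of genes were past. The summed arterial endothelium list in these classes was 690, 320 and 604 CPM. The lymphatic endothelial marker list was 370, 56.3 and 12.0 CPM, so the makeup of the endothelial class also differed between libraries. The part of that makeup in these ratios was not tested.

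Of the other pathway genes in muscle, 4 of 39 lay past 1.5-fold in APOE4 to APOE3. Hes5, another Hes-family target, had 10 and 56 UMIs in APOE3 and APOE4 (log2 ratio 2.40), Nrarp 49 and 114 (1.13), and the other 2 were Dtx4 (0.69) and Jag2 (-0.68). In APOE4 to APOE2 these were 5 of 40, with Hes5 at 6 and 56 UMIs (3.50), Nrarp at 44 and 114 UMIs (1.65), Lfng (0.66), Dtx4 (-0.72) and Dtx1 (-0.67). In APOE2 to APOE3 4 of 38 were past, Dtx4 (1.41), Dtx1 (0.64), Maml3 (0.62) and Jag2 (-0.90). As shares of the genes tested these were 10.3%, 12.5% and 10.5%, below those of all genes. Hes5 and Nrarp, both known to respond to Notch, were highest in the APOE4 library, on few UMIs. Lfng was scarce in muscle too, being too sparse to test between the Hox and Hand2 subsets, so its ratio is a description. Hes5 had enough UMIs for a ratio only through the APOE4 library, where it is high, and had too few for APOE2 to APOE3. Its place among the genes past 1.5-fold is therefore no independent evidence, and its ratios are descriptions.

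Genes whose levels over 19 pools of class and library were most like a member were listed by Pearson r, as a description over pools that share libraries. Notch1 was most like Arhgap31 (0.95), Orai1 (0.93) and Map3k11 (0.92). Notch3 was most like Tceal6 (0.87), Klhl30 (0.84) and Tfb2m (0.84). Heyl was most like Mark1 (0.86), Wfdc1 (0.86) and Sphkap (0.84), so the receptor and the target found in muscle had different nearest genes. Jag1 was most like Zfyve9 (0.97), Uaca (0.96) and Bmpr2 (0.94). Hes1 was most like Trir (0.93), Pik3r3 (0.92) and Atn1 (0.92). Dll4 was most like Depp1, Serpina1b and Serpina1e (0.99 each), a likeness that rests on the single APOE2 endothelial pool.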

How the data were processed

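Aortic cells of 3 pools of mice, 1 per APOE genotype, were profiled as droplet libraries of single-cell RNA. The deposited matrices hold UMI counts per gene and cell, made by the authors with Cell Ranger 7.0.1 on mm10 and not normalized. Cells with at least 200 detected genes and under 20% mitochondrial UMIs were kept, giving 124926887 to 168310501 UMIs per library. The members and lists were chosen with earlier results of these data known.

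Cells were normalized and integrated with Seurat 5.3.0 (SCTransform, sctransform 0.4.2, canonical correlation, 3000 features, 30 components) and clustered by Louvain at resolution 0.8, with the Notch genes left out of the features. The authors' annotation was not among the files used, so classes were rebuilt from marker lists, with naming rules settled after the clusters were seen, and shares may differ from the study's for that reason. A cluster that kept at least 8 of 10 smooth muscle markers and led with no other class was called smooth muscle-like. Its median UMI count also had to lie between the library median divided by 3 and 5 times that median. Clusters against these rules stayed unnamed (2151, 1578 and 1064 cells). Among them, clusters of 1333, 1092 and 586 cells over the libraries kept all 10 muscle markers and were unnamed for a low median UMI count. Scrublet's automatic threshold marked 1, 0 and 2 cells and had not worked, so doublets were kept, and removing the highest 5% of scores was an alternative.

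UMIs were summed by class or subset and library. Differences were fitted over all genes with edgeR 4.0.16 (quasi-likelihood test, TMM, low-count filter, library as a term, Benjamini-Hochberg adjustment, adjusted p under 0.05) in R 4.3.3, where the 3 libraries, each of another genotype, served as replicates. SE were computed from the F statistic. The p-values measure the spread between these libraries. The replicate block pairs sums because all classes of a library come from the same pooled mice. Over 1941 genes, deviations from the class means correlated with those of muscle at 0.59, 0.68 and 0.77 for fibroblasts, 0.35, 0.31 and 0.25 for endothelium and 0.38, 0.37 and 0.43 for macrophages. Between genotypes the CPM ratio was given with an exact conditional binomial 95% interval, without test, over genes with at least 50 UMIs in both libraries together. Levels carry exact Poisson intervals. These intervals and floors (3 UMIs for a count of 0) cover counting error only.

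All 9 members were named in each comparison, and of 42 other pathway genes up to 3 called ones in each direction. Likeness was taken over pools of at least 30 cells. Scripts were tested on simulated data, with Python 3.11.15, scipy 1.17.1 and scanpy 1.11.5 beside R. Alternatives were DESeq2 1.42.0 (its test and its size factors), no low-count filter, no block, other clustering resolutions, classes set cell by cell, stricter cell filters, other subset cutoffs, a 2-fold limit, other scalings, and leaving out each library or the clusters led by Dnajb1 or Ccdc152. Gene positions came from GENCODE vM21 and promoters from RefSeq.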

Additional observations from a re-analysis of the deposited data

Results flagged for a closer look

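Ratios between libraries that lay on opposite sides in different classes were marked for a closer look, with 1 library per genotype and the differences between classes not tested. The log2 ratio of Hes1 for APOE2 to APOE3 was 0.36 in endothelial-like and -0.44 in smooth muscle-like cells. Without the cluster led by Dnajb1 and Atf3 the muscle ratio was -0.01. Within single muscle clusters it was below 0 in 6 of 7, from -0.54 in that cluster to 0.62 in the Dlx cluster. For APOE4 to APOE2, Hes1 was at 1.42 in smooth muscle-like and 0.89 in fibroblast-like cells and at -0.52 in endothelial-like cells. Heyl for APOE4 to APOE3 was at 0.21 in fibroblast-like and -0.24 in smooth muscle-like cells. For APOE4 to APOE2, Heyl was at 0.37 in fibroblast-like and -0.42 in smooth muscle-like cells.

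Clusters left without a name, and so outside the comparisons, held high levels of some members. The cluster led by Lcn2, Slc39a1, Saa3 and Notch2 itself, of 215, 391 and 47 cells in APOE2, APOE3 and APOE4, kept smooth muscle markers and also had raised endothelial markers. It had 139 and 173 CPM of Notch2 and 33.1 and 39.8 CPM of Jag1 in APOE2 and APOE3. A cluster led by Alas2 and haemoglobin genes, with 178 of its 255 cells from APOE3, had 172 CPM of Notch2, 46.0 CPM of Jag1 and 104 CPM of Heyl in that library. Notch2, Jag1 and Heyl were not used in making the clusters.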

How the results depend on the processing

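Direction was compared only where a difference was called in the main fit or in the alternative. Over the alternatives, 493 of the members' log2 differences between classes or subsets kept their side of the threshold without a reversal so defined. Of the rest, 35 were no longer called, 11 became called and 1 reversed. That was Hey1 in endothelial-like against smooth muscle-like cells, at -1.62 without the APOE2 library (range -1.62 to 2.74 over the libraries left out). Of the log2 ratios between libraries 470 stayed within their interval and 51 moved beyond it, and Notch2 for APOE4 to APOE2 in endothelial-like cells reversed to -0.67 with classes set cell by cell. Of the shares of cells with a UMI, 119 stayed within their interval and 187 moved. Leaving out each library in turn gave 4 to 5 members called for fibroblasts, 3 to 6 for endothelium, with 3 without APOE2, 6 to 7 for macrophages, 4 to 4 for Hox against Hand2 muscle and 2 to 4 for modulated muscle, with 2 without APOE3. Without the replicate block, 0 members were called for Hox against Hand2 and 2 for modulated muscle, and the number called did not move beyond 1.5 times in the class comparisons, though Hes1 in fibroblasts was lost (edgeR adjusted p = 0.085). For Hox against Hand2, DESeq2's test called 3 members, and 3 were called with subsets set by at least 2 UMIs. For modulated muscle, 2 were called in cells of 5000 to 30000 UMIs.

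A 2-fold limit left 1 member past it in muscle for APOE4 to APOE3 and 1 for APOE4 to APOE2, 0 in fibroblasts in each of the 3 comparisons and 1 in endothelium for APOE4 to APOE2. That endothelial member was Dll4, whose place past the limit is no independent evidence. The mean of each cell's CPM left 0 for APOE2 to APOE3 in fibroblasts. Scaling by the median gene gave 2 in fibroblasts for APOE4 to APOE3. Classes set cell by cell gave 4 and 5 in fibroblasts for APOE2 to APOE3 and APOE4 to APOE2, and 1 in endothelium for APOE2 to APOE3 and 1 for APOE4 to APOE3. The causes were not tested. Clustering at resolution 0.4 gave no endothelial-like class and no value for it. The clusters left out singly were chosen after seeing the data, and the members past 1.5-fold in muscle stayed at 0, 3 and 3. Among the fitted classes the endothelial-like class had the fewest UMIs in each library, with few or no UMIs of Dll4, Hey1 and Notch3 outside APOE2.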
